A study of Mus musculus with 6 samples.

Results

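The proteasome is the protease that degrades ubiquitin-tagged proteins in the cytoplasm and nucleus. Its genes were taken as the protein-coding rows of the deposited table whose symbol starts with Psm, then a letter from a to g, then a digit. This rule gave 51 of 55385 mouse genes in the table. The cells were from skin squamous cell carcinomas of mice, induced by DMBA, a mutagen, followed by TPA, an agent that promotes tumour growth. Bulk polyA RNA was sequenced from Itga6 high CD80 positive cells, which the series text calls stem-like (Itga6hi CD80pos), and from Itga6 low CD80 negative cells, which it calls differentiated (Itga6low CD80neg). Each population had 2 libraries, and the labels do not say whether these came from separate animals, so a p-value reflects only how far these libraries spread, which may be technical. The labels give no strain, sex, age or gate beyond these markers. Itga6 high CD80 negative cells, also labelled in the series, were not analysed here.

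In the core particle (20S), outer rings of alpha subunits gate access and inner rings of beta subunits carry the proteolytic sites. A regulatory particle (19S) of ATPases and other subunits binds ubiquitinated proteins, unfolds them and feeds them in. Interferon and related signals induce alternative catalytic beta subunits, which replace the constitutive ones and form the immunoproteasome, known for making peptides for MHC class I. Other activators can cap the core in place of the regulatory particle, and dedicated chaperones build both.

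Values are TPM, transcript levels scaled to the same total in every library, so they can be compared between genes but keep no record of depth, and the depth is unknown. Where 4 values of a gene are given, those before "versus" are Itga6hi CD80pos replicates 1 and 2, and those after it are Itga6low CD80neg replicates 1 and 2. The populations differed widely in what filled that total. Haemoglobin genes held 0.0185% and 0.00621% versus 70.9% and 50.4% of TPM. The summed level of 7 keratinocyte markers, which include the sorted marker Itga6 and its partner Itgb4, was 4.25% and 4.34% against 0.157% and 0.434% of TPM, and limma called all 7 higher on deposited TPM and 5 of 7 after median-of-ratios scaling (not Krt14 and Cdh1). For Itga6 the direction was set by the sort. All 7 fibroblast markers were lower, with sums of 8.41 and 9.08 TPM versus 8586 and 5274 TPM. The sum of 10 leukocyte markers was 3.07 and 2.68 TPM versus 21.2 and 97.9 TPM, with Fcer1g, Lyz2 and Cd3e at 0 in Itga6hi CD80pos replicate 2. The sum of 5 endothelial markers was 4.37 and 9.37 TPM versus 6.60 and 3.17 TPM, with Emcn at 0 in Itga6low CD80neg replicate 1. Of 7 red cell markers, 1 was at 0 in Itga6hi CD80pos replicate 1 and 2 were at 0 in its replicate 2, Slc4a1 among these 2. The keratinocyte markers were thus lower, and fibroblast and red cell markers higher, in the libraries that the series text calls differentiated cancer cells. The part of these marker levels in the results below was not tested, and in bulk RNA fewer cells of a type and less RNA per cell cannot be told apart.

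Nearly all proteasome genes had more TPM in Itga6hi CD80pos. Together the 51 genes held 0.706% and 0.654% of TPM in the Itga6hi CD80pos libraries against 0.116% and 0.259% in the Itga6low CD80neg libraries. For 48 genes a level of 1 TPM or more was reached in 2 or more libraries, the filter used for testing. Of these 48, 42 were higher and 0 were lower (limma on log2(TPM + 1), Benjamini-Hochberg adjusted p under 0.05), where 57.0% of all 13474 genes tested were higher and 9.48% were lower. At an unadjusted p under 0.05, 43 were higher and 0 lower, where 61.4% of all genes were higher and 10.2% lower. Both Itga6hi CD80pos libraries stood above both others for 45 of the 48, as for 73.5% of all genes. The median log2 fold change of the 48 genes was 2.01, and that of all genes tested was 1.27. The genes that did not pass were Psmd13, Psmb8, Psmb9, Psmb10, Psme1 and Psme2, and the last 5 of these are the interferon-inducible members.

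**Figure D1:**
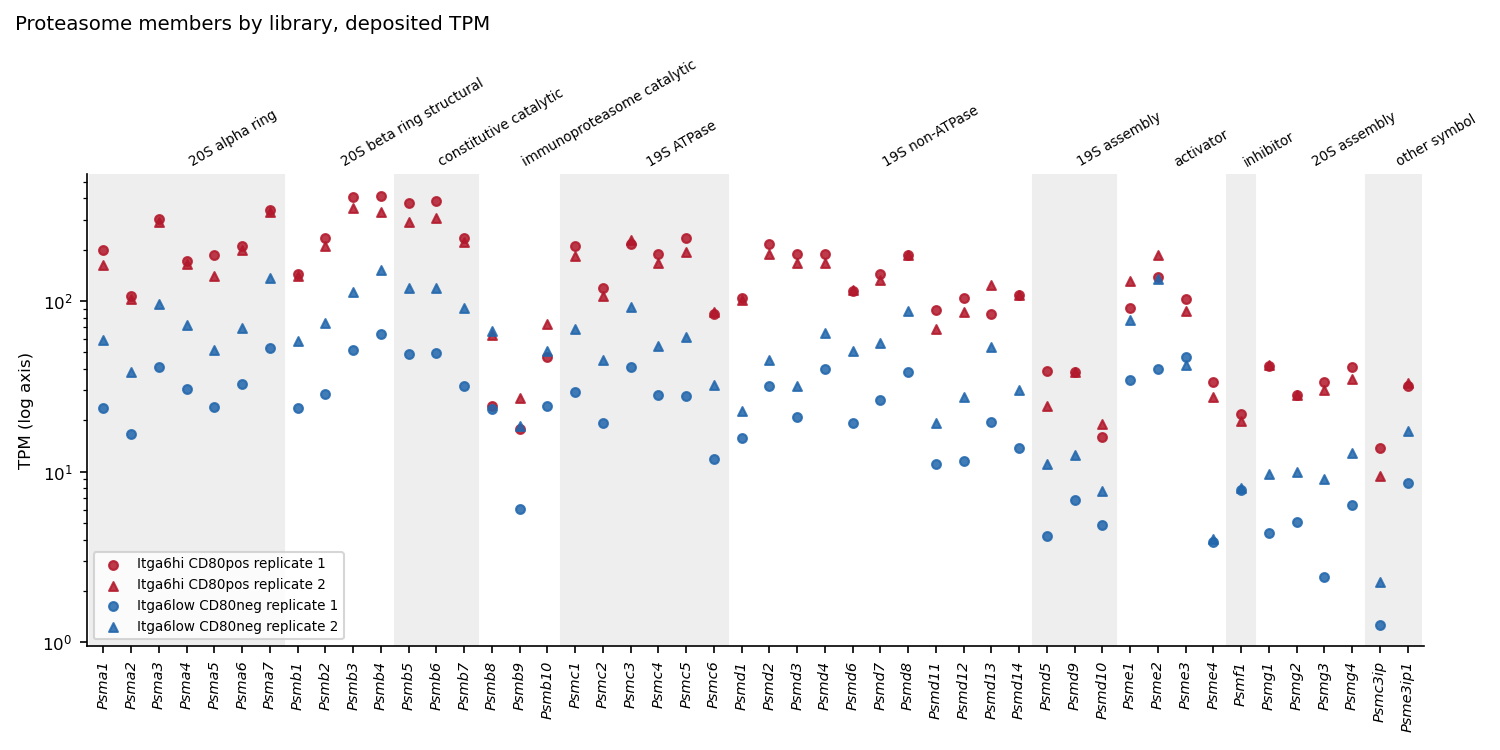
Deposited TPM (log axis) of the 48 proteasome symbols that passed the filter, in each of 4 libraries, grouped by role. Red points (Itga6hi CD80pos) lie above blue points (Itga6low CD80neg) for 45 of the 48, as for 73.5% of all genes. Red and blue overlap for Psmb8, Psmb9 and Psmb10.

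Other scalings of the same values left few of these calls. Median-of-ratios scaling brought the median of all genes to -0.01 and that of the 48 proteasome genes to 0.49, and 2 were higher (Psmd3 and Psme4), against 6.26% of all genes. Quantile normalization called 4 higher (Psmd1, Psmd2, Psmd3 and Psme4), against 10.7% of all genes. With haemoglobin genes taken out of the total, 5 were higher (Psmd1, Psmd2, Psmd3, Psmd14 and Psmg1), against 7.72% of all genes. These shares (2, 4 and 5 of 48) are close to those of all genes at this threshold. With limma at an unadjusted p under 0.05, 8, 19 and 22 of the 48 were higher under the 3 scalings in this order. The shares of all genes were 14.6%, 23.7% and 18.8%. Of all calls at an adjusted p under 0.05, 85.8% were higher on deposited TPM, and 31.5%, 48.8% and 41.6% under the 3 scalings. Psmd3 alone passed on deposited TPM and under the 3 scalings, 1 of 48 where 5.69% of all genes did. No proteasome gene was lower under any of the 3, with limma at adjusted p under 0.05 or at an unadjusted p under 0.05. Of all genes, 13.6%, 11.3% and 10.8% were lower at the adjusted threshold under the 3 scalings in this order. At the unadjusted threshold 21.2%, 16.98% and 17.8% were lower. Leaving out either Itga6hi CD80pos library left 0 of the 48 called by limma on deposited TPM, with 12 higher at an unadjusted p under 0.05 without replicate 1 and 17 without replicate 2. Over all genes tested, limma called 0 without replicate 1 (4442 higher and 1033 lower at an unadjusted p under 0.05), and 353 higher and 174 lower without replicate 2. In a fit without 1 library, the lone library of its population is assumed to vary like the other population.

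**Figure D2:**
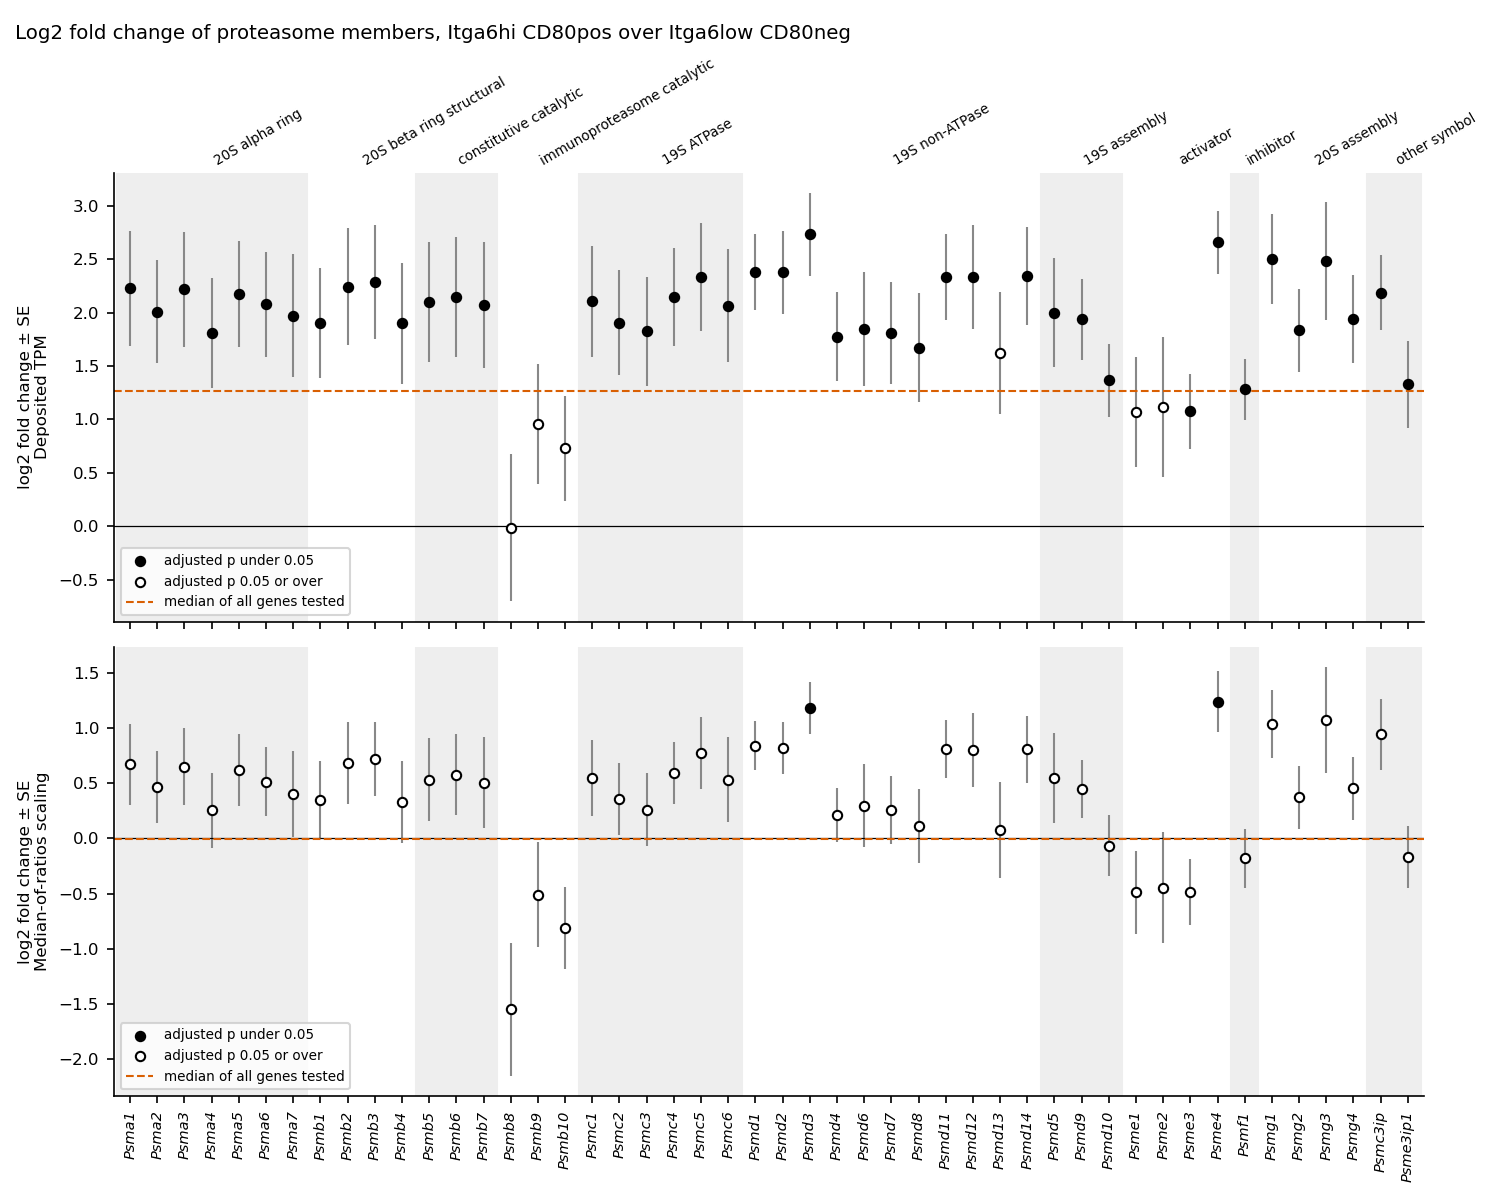
Log2 fold change, Itga6hi CD80pos over Itga6low CD80neg, with its SE for 48 proteasome symbols, on deposited TPM (top) and after median-of-ratios scaling (bottom). Filled points passed an adjusted p of 0.05, and the dashed line is the median of all genes tested, 1.27 and -0.01. The constitutive core subunits sit in a narrow band above the line, and the regulatory particle subunits spread more widely above it. The immunoproteasome subunits and Psme1, Psme2 and Psme3 sit below the line in both panels. Psmd10, Psmf1 and Psme3ip1 sit below it in the bottom panel only.

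The alpha ring was higher as a whole. On deposited TPM Psma1 to Psma7 were all higher, as were 57.0% of all genes. Their log2 fold changes ran from 1.81 (Psma4) to 2.23 (Psma1). Psma7, the ring member with the most TPM, measured 343 and 333 TPM versus 52.9 and 136.9 TPM. Psma3, a subunit of the gate, had 301 and 292 TPM versus 41.0 and 96.4 TPM, and its log2 fold change was 2.22 ± 0.54 (SE, limma adjusted p = 0.0173). Psma1, at 198 and 162 TPM versus 23.5 and 59.5 TPM, Psma5, at 187 and 141 TPM versus 23.9 and 51.7 TPM, and Psma6, at 210.2 and 200.4 TPM versus 32.7 and 69.8 TPM, lay between. Psma4 measured 172 and 165 TPM versus 30.5 and 72.3 TPM. Psma2 was the lowest of the 7 in every library, at 107 and 103 TPM versus 16.6 and 38.4 TPM. In all 4 libraries the most abundant alpha subunit had 3.19 to 3.57 times the TPM of the least abundant. Psma8, the alpha subunit of germ cells, was at 0.0913 and 0.0785 TPM and listed at 0 in both Itga6low CD80neg libraries. After median-of-ratios scaling the 7 fold changes ran from 0.25 to 0.67 and none passed.

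The 4 beta subunits without a proteolytic site were higher by about the same factor. Psmb4 was at 415 and 334 TPM versus 64.3 and 152 TPM, and Psmb3 at 407 and 351 TPM versus 51.5 and 113 TPM. Psmb2 had 234 and 211 TPM versus 28.6 and 73.9 TPM, and Psmb1, the lowest of the 4, had 144 and 141 TPM versus 23.8 and 58.3 TPM. All 4 were higher on deposited TPM, with log2 fold changes from 1.90 to 2.29, and no library of one population overlapped the other. Of all genes, 57.0% were higher, and for 73.5% both Itga6hi CD80pos libraries stood above both others. After median-of-ratios scaling the 4 fold changes ran from 0.33 to 0.72 and none passed.

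The constitutive proteolytic subunits are Psmb5, with chymotrypsin-like activity, Psmb6, with caspase-like activity, and Psmb7, with trypsin-like activity. Psmb5 measured 377 and 292 TPM versus 49.0 and 119 TPM, with a log2 fold change of 2.10 ± 0.57 (SE, limma adjusted p = 0.0236). Psmb6 had 385 and 307 TPM versus 49.5 and 119 TPM, with a log2 fold change of 2.15 ± 0.56 (SE, limma adjusted p = 0.0217). Psmb7 was at 235 and 223 TPM versus 31.6 and 90.9 TPM, with a log2 fold change of 2.07 ± 0.59 (SE, limma adjusted p = 0.0276). The 3 fold changes differed by less than any of their errors. After median-of-ratios scaling they were 0.53, 0.58 and 0.51, and none passed (limma adjusted p from 0.327 to 0.436). Within each population the libraries were not alike: Itga6low CD80neg replicate 2 had 2.43, 2.41 and 2.87 times the TPM of replicate 1 for these genes, beside a lower haemoglobin share.

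Promoter sequences of Psmb5 and Psmb6 are shown because proteasome subunit genes are known targets of the factors Nfe2l1 and Nfe2l2 at antioxidant response elements. The letters TGACNNNGC, searched on both strands, are in capitals. The sequences are from RefSeq on GRCm38.p6 and run on the strand of each gene, Psmb5 at chr14:54618023-54618222 (minus strand) and Psmb6 at chr11:70525157-70525356 (plus strand).
Psmb5: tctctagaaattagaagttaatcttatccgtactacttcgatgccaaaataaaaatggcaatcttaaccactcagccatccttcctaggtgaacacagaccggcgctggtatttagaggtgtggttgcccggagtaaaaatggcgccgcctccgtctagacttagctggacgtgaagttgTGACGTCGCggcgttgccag
Psmb6: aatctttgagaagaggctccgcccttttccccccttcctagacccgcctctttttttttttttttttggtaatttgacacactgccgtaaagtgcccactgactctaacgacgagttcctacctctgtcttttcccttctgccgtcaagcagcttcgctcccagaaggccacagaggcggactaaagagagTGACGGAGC
The match begins 47 bases before the RefSeq start of Psmb5 and 9 bases before that of Psmb6. RefSeq windows, 250 bases before to 50 after a start, were found for 43 of the 51 genes. This motif was in windows of 6 of the 43 genes (13.95%, Psmb5, Psmb6, Psmc6, Psmd9, Psmd12 and Psme4) and in 12.4% of all 32851 windows. The first share is over genes, some with more than 1 window, and the second over windows. The ETS letters CCGGAAG were in windows of 16 of 43 genes (37.2%), against 8.86% of all windows, and GGGCGG in 24 (55.8%), against 35.7%. CCAAT was in 16 (37.2%, against 37.4% of all windows), and GGTTG in 18 (41.9%, against 39.3%). TGACTCA, the AP-1 letters, was in 1 (2.33%, against 5.20%). The consensus NF-kB site was in 0 (against 0.155% of all windows), and a looser form of it, GGG and CCC with any 4 bases between, in 6 (13.95%, against 11.9%). In total 10 motifs were searched, the interferon motifs given with Psme1 among them. The searches covered both strands, and a match is a description of the letters only. Nfe2l2 itself was at 259 and 170.4 TPM versus 20.5 and 27.4 TPM and was higher on deposited TPM (limma adjusted p = 0.00556) and under the 3 scalings above (at most 0.0265), but did not pass relative to the proteasome core (0.155). Nfe2l1 measured 59.5 and 64.6 TPM versus 29.1 and 25.4 TPM, higher on deposited TPM (limma adjusted p = 0.0262), with a log2 fold change of -0.38 after median-of-ratios scaling.

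None of the 3 immunoproteasome subunits passed. Psmb8, which takes the place of Psmb5, measured 24.4 and 63.1 TPM versus 23.4 and 67.1 TPM, with a log2 fold change of -0.02 ± 0.69 (SE, limma adjusted p = 0.986). Psmb9, which takes the place of Psmb6, had 17.7 and 26.9 TPM versus 6.05 and 18.6 TPM, with a log2 fold change of 0.96 ± 0.56 (SE, limma adjusted p = 0.178). Psmb10, which takes the place of Psmb7, was at 47.2 and 73.4 TPM versus 24.1 and 50.9 TPM, with a log2 fold change of 0.73 ± 0.49 (SE, limma adjusted p = 0.231). For all 3 the populations overlapped, and all 3 lay under the median of all genes. After median-of-ratios scaling the log2 fold changes were -1.55, -0.51 and -0.81, and none passed (limma adjusted p from 0.144 to 0.491). Psmb11, the thymus-specific catalytic subunit, was at or under 0.0631 TPM in every library.

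The ratio of immunoproteasome to constitutive subunits within a library does not change with that library's scaling factor. The summed TPM of Psmb8, Psmb9 and Psmb10 was 0.0896 and 0.199 times that of Psmb5, Psmb6 and Psmb7 in Itga6hi CD80pos, and 0.412 and 0.415 times in Itga6low CD80neg. The populations did not overlap, and both Itga6low CD80neg libraries were higher. The mean log2 ratio was -2.91 ± 0.81 against -1.27 ± 0.0079 (SD, n = 2 each; exact permutation test, two-sided, p = 0.333, the smallest that 2 libraries against 2 allow). The ratio was thus 3.10-fold lower in Itga6hi CD80pos, a difference of -1.63 ± 0.58 on the log2 scale (SE). As a reference, the median of all genes tested, scaled to the 14 constitutive core subunits, was at -0.46, and 46.2% of all genes were higher on that scale in both Itga6low CD80neg libraries. Without Itga6hi CD80pos replicate 1 the difference was -1.06, and without its replicate 2 it was -2.21. Each pair gave the same order of the populations. Psmb8 to Psmb5 was 0.0646 and 0.216 against 0.478 and 0.563, Psmb9 to Psmb6 was 0.0460 and 0.0876 against 0.122 and 0.156, and Psmb10 to Psmb7 was 0.201 and 0.329 against 0.764 and 0.560. The difference was 4.39-fold for Psmb8, 2.18-fold for Psmb9 and 2.54-fold for Psmb10, and these 3 folds were not tested against each other. The log2 difference of Psmb8 to Psmb5 was -2.13, but -1.26 without Itga6hi CD80pos replicate 1 and -3.00 without its replicate 2. Without the same libraries it was -0.66 and -1.59 for Psmb9 to Psmb6 and -0.99 and -1.70 for Psmb10 to Psmb7. In every library the constitutive partner had more TPM than its inducible counterpart.

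**Figure D3:**
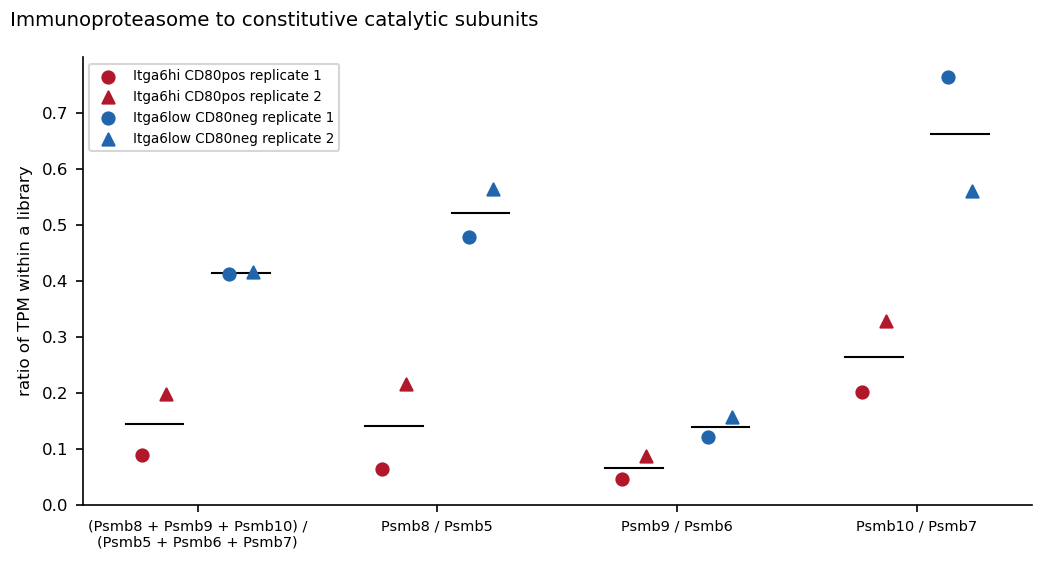
Ratio of TPM of immunoproteasome to constitutive catalytic subunits within each library, for the sums and for the 3 pairs. Points are libraries and bars are means of 2 libraries. Both blue points (Itga6low CD80neg) lie above both red points (Itga6hi CD80pos) in each column, from 0.412 to 0.415 against 0.0896 to 0.199 for the sums.

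The Itga6hi CD80pos libraries differed from each other in these genes. Replicate 2 had 2.59 times the TPM of replicate 1 for Psmb8, 1.52 times for Psmb9 and 1.56 times for Psmb10, but 0.774, 0.798 and 0.952 times for Psmb5, Psmb6 and Psmb7. Of genes known to be induced with the immunoproteasome, B2m, the light chain of MHC class I, was at 628 and 1284 TPM versus 515 and 1485 TPM. Irf1, an interferon-induced factor that activates Psmb9, was at 17.3 and 58.6 TPM versus 91.7 and 89.4 TPM (log2 fold change -1.47 ± 0.62, SE, limma adjusted p = 0.0812). In replicate 2 of Itga6hi CD80pos Irf1 had 3.38 times the TPM of replicate 1. Of 10 MHC class I and interferon genes, 2 were higher (Tap1 and Nlrc5) and 0 lower on deposited TPM, with a median log2 fold change of 0.64, where 57.0% of all genes were higher and 9.48% lower. After median-of-ratios scaling 0 were higher and Irf1 was lower, with a log2 fold change of -3.01 (limma adjusted p = 0.0352), and Irf1 was also lower after quantile normalization (0.0427) and without haemoglobin genes (0.0437). A count of 1 in 10 is near the 13.6% of all genes that were lower after median-of-ratios scaling. With limma at an unadjusted p under 0.05, 2, 5 and 5 of the 10 were lower under these 3 scalings in order, and 0 higher. Of all genes, 21.2%, 16.98% and 17.8% were lower, and 14.6%, 23.7% and 18.8% higher. Scaled to the proteasome core, 7 were lower and 0 higher at that threshold, where 23.2% of all genes were lower and 5.39% higher. Tap1, a peptide transporter chain encoded beside Psmb9, measured 38.7 and 47.1 TPM versus 12.1 and 17.7 TPM. Its exons share 212 bases with those of Psmb9 on the other strand, and the labels do not say whether counting used strand. Exons of Psmb7 share 405 bases with Nek6, which was at 5.62 to 10.1 TPM, on the other strand. Other members have such overlaps too, among them Psmc3 (215 bases, Slc39a13), Psmd13 (342 bases, Sirt3) and Psmd9 (1849 bases, Gm26745). Slc39a13 was at 7.46 and 12.8 TPM versus 24.2 and 25.3 TPM, and Gm26745 had no value here. The part of these overlaps in the values was not tested. Leukocyte markers, whose cells are known for high immunoproteasome levels, summed to at most 3.07 TPM in Itga6hi CD80pos and at least 21.2 TPM in Itga6low CD80neg, and their part in the ratio was not tested.

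The 6 ATPases of the regulatory particle were higher, like the constitutive core. Psmc1 to Psmc6, which form its unfolding ring, were all higher on deposited TPM, where 57.0% of all genes were. Their log2 fold changes ran from 1.83 (Psmc3) to 2.33 (Psmc5). Psmc5 had 233 and 194 TPM versus 27.7 and 61.6 TPM (limma adjusted p = 0.0131), and Psmc3 had 216 and 227 TPM versus 41.1 and 92.4 TPM. Psmc1 measured 211 and 183 TPM versus 29.1 and 68.8 TPM, Psmc2 120.1 and 107 TPM versus 19.3 and 44.9 TPM, and Psmc4 188 and 168 TPM versus 28.2 and 54.6 TPM. Psmc6 was the lowest of the 6 in every library, at 84.5 and 86.5 TPM versus 11.8 and 32.3 TPM. After median-of-ratios scaling none of the 6 passed, with log2 fold changes from 0.26 to 0.77.

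The other subunits of the regulatory particle spread more widely. Of 11, 10 were higher on deposited TPM, where 57.0% of all genes were. The 11 log2 fold changes ran from 1.63 (Psmd13) to 2.73 (Psmd3). Psmd3, a lid subunit, was at 188 and 167 TPM versus 20.8 and 31.8 TPM, with a log2 fold change of 2.73 ± 0.39 (SE, limma adjusted p = 0.00603). It was the proteasome gene that passed on deposited TPM and under the 3 scalings above, with log2 fold changes of 1.18 after median-of-ratios scaling (limma adjusted p = 0.0310), 1.38 after quantile normalization and 1.37 without haemoglobin genes. The large scaffold subunits of the base, Psmd1 and Psmd2, were at 105 and 102 TPM versus 15.8 and 22.8 TPM, and at 215 and 189.5 TPM versus 31.8 and 45.3 TPM. Both had a log2 fold change of 2.38, and both passed under 2 of 3 other scalings. Psmd14, the deubiquitinase of the lid, measured 109 and 108 TPM versus 13.8 and 30.1 TPM (limma adjusted p = 0.0105). Psmd4, a ubiquitin receptor, had 188 and 166 TPM versus 40.1 and 64.6 TPM, with a log2 fold change of 1.78, and 0.21 after median-of-ratios scaling. Psmd13, a lid subunit, did not overlap between populations, at 84.2 and 125 TPM versus 19.6 and 53.7 TPM, and just missed the threshold (limma adjusted p = 0.0504). Psmd8, a lid subunit, measured 186 and 187 TPM versus 38.1 and 87.1 TPM, and Psmd11, another, 88.6 and 68.3 TPM versus 11.0 and 19.3 TPM. The lid subunits Psmd6, Psmd7, Psmd8, Psmd11 and Psmd12 had log2 fold changes from 1.67 (Psmd8) to 2.33 (Psmd11 and Psmd12).

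All 4 chaperones that assemble the core were higher on deposited TPM, where 57.0% of all genes were. After median-of-ratios scaling none of the 4 passed. Psmg1 and Psmg2 form a heterodimer that helps build the alpha ring, and Psmg3 and Psmg4 form another. Psmg1 was at 41.8 and 42.4 TPM versus 4.39 and 9.71 TPM, with a log2 fold change of 2.50 ± 0.42 (SE, limma adjusted p = 0.00765). Its partner Psmg2 was at 28.2 and 28.0 TPM versus 5.05 and 10.01 TPM, with a log2 fold change of 1.83. Psmg3 measured 33.4 and 30.2 TPM versus 2.42 and 9.0 TPM, and Psmg4 measured 41.3 and 34.8 TPM versus 6.42 and 12.9 TPM, with log2 fold changes of 2.49 and 1.94. The difference between partners was not tested. Of chaperones of the regulatory particle, Psmd5 and Psmd9 had log2 fold changes of 2.00 and 1.94 and Psmd10, also called gankyrin, of 1.37, all higher on deposited TPM. Psmd10 had 15.9 and 19.1 TPM versus 4.86 and 7.73 TPM, and its log2 fold change turned to -0.06 after median-of-ratios scaling.

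Of the 4 activators, 2 were higher on deposited TPM, where 57.0% of all genes were. Psme4, the large nuclear activator known as PA200, was at 33.4 and 27.3 TPM versus 3.86 and 4.02 TPM. Its log2 fold change of 2.66 ± 0.30 (SE, limma adjusted p = 0.00439) had the lowest adjusted p of all 48 genes. It passed after median-of-ratios scaling (limma adjusted p = 0.0415) and quantile normalization (0.0282) but not without haemoglobin genes (0.0523). Psme1 and Psme2, the interferon-inducible chains of the activator PA28, did not pass. Psme1 was at 90.5 and 132 TPM versus 34.3 and 77.0 TPM (log2 fold change 1.07 ± 0.52, SE, limma adjusted p = 0.117), and Psme2 at 139 and 186 TPM versus 39.9 and 135 TPM (1.12 ± 0.66, adjusted p = 0.179). Psme3, the nuclear chain of the PA28 family, measured 103 and 87.4 TPM versus 46.9 and 42.3 TPM and was higher on deposited TPM (limma adjusted p = 0.0400). The log2 fold changes of Psme1, Psme2 and Psme3 turned to -0.49, -0.45 and -0.48 after median-of-ratios scaling, none of which passed. Psmf1, known as an inhibitor of the core, had 21.7 and 19.8 TPM versus 7.83 and 8.05 TPM, with a log2 fold change of 1.28 close to the median of all genes, which turned to -0.18 after that scaling.

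A stretch of Psme1 is shown because it holds the letters of an interferon-stimulated response element, the kind of site through which interferon induces genes. The motif searched was GAAA, any 2 bases and GAAA, here on the other strand and in capitals. The sequence is from RefSeq on GRCm38.p6, chr14:55578494-55578521, plus strand, and the match begins at base 10, counting the RefSeq start as base 1.
Psme1: gagctgtgcTTTCGCTTTCccttcccgc
This motif was in windows of 5 of 43 genes (11.6%, Psme1, Psmb3, Psmd4, Psmd9 and Psmg4), against 3.44% of all windows. The gamma-activated letters TTCNNNGAA were in windows of 3 of 43 (6.98%, Psmb8, Psmd2 and Psmg1), against 8.30%. Both groups of genes hold interferon-inducible and constitutive members.

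To compare members with the core, each was divided by the geometric mean of the 14 constitutive core subunits of the same library. This mean is itself a scaling factor, and the measure was chosen after the values were seen. In the sentences that follow, the first pair of values is again Itga6hi CD80pos. That mean was 245 and 217 TPM in Itga6hi CD80pos and 34.6 and 83.1 TPM in Itga6low CD80neg. Of 34 tested members outside the core, 15 were higher relative to the core in both Itga6low CD80neg libraries, as were 46.2% of all genes. A further 8 were higher in both Itga6hi CD80pos libraries, as were 15.2% of all genes, and 11 overlapped. Psmb8 stood at 0.0993 and 0.290 of the core against 0.677 and 0.807, and Psmb10 at 0.192 and 0.338 against 0.698 and 0.612. Psme1 stood at 0.369 and 0.606 of the core against 0.992 and 0.927, and Psme2 at 0.567 and 0.854 against 1.15 and 1.62. Psme3 was at 0.420 and 0.402 of the core against 1.36 and 0.509, a log2 difference of -1.02, which was -0.31 without Itga6low CD80neg replicate 1. The summed TPM of Psme1 and Psme2 was 0.0618 and 0.0975 of the summed core in Itga6hi CD80pos and 0.143 and 0.169 in Itga6low CD80neg, a 2.00-fold difference (exact permutation test, two-sided, p = 0.333). On the other side, Psmd3 stood at 0.766 and 0.767 of the core against 0.602 and 0.382, and Psmg1 at 0.170 and 0.195 against 0.127 and 0.117. Scaled in this way, limma called 0 of the 34 higher and 0 lower, where 1.02% of all genes were higher and 7.64% lower. At an unadjusted p under 0.05, 4 were lower (Psmb8, Psmb10, Psme1 and Psme2, adjusted p from 0.0803 to 0.132) and 0 were higher, where 23.2% of all genes were lower and 5.39% higher. A share of 4 in 34 lies under that background.

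**Figure D4:**
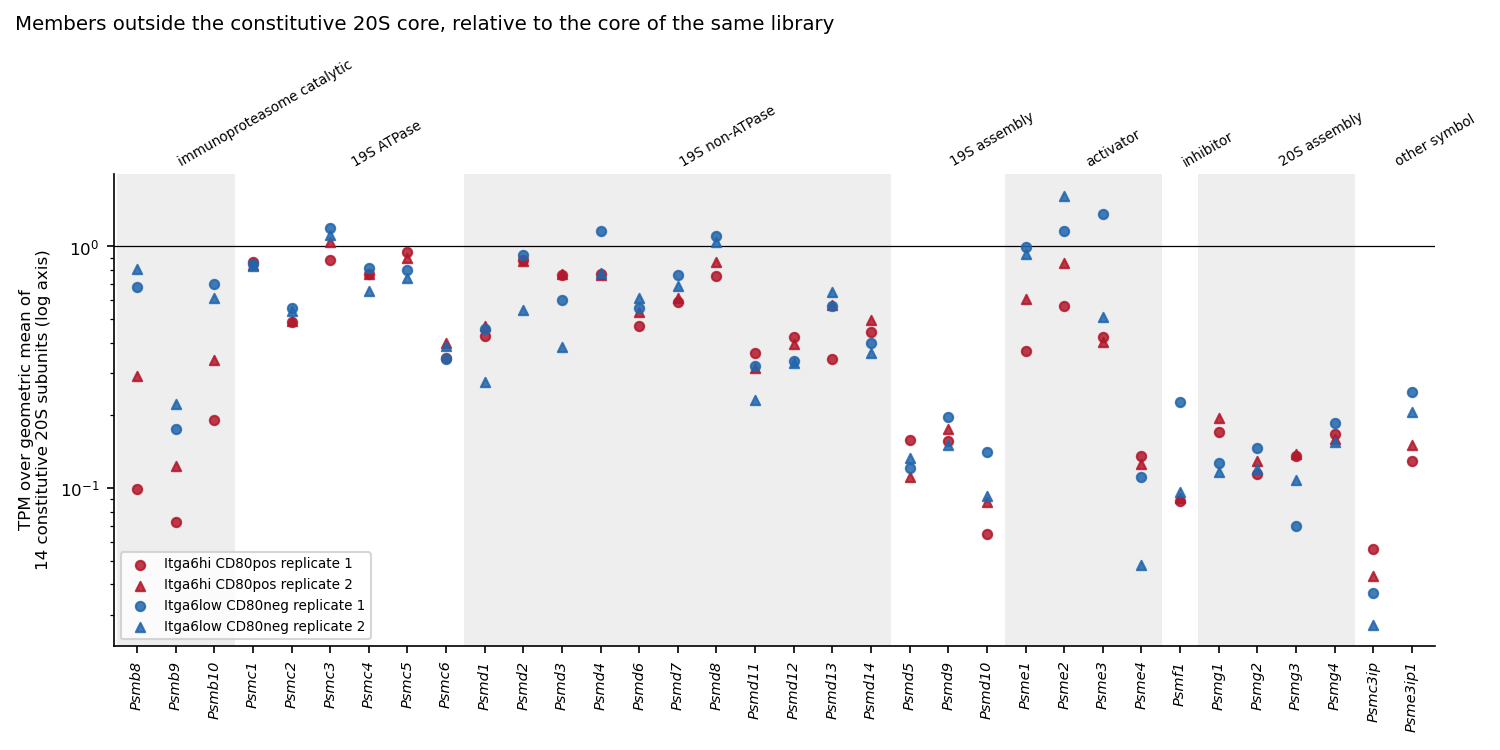
TPM of each member outside the constitutive core over the geometric mean of the 14 constitutive core subunits of the same library (log axis, 1 means equal to the core mean). Both blue points (Itga6low CD80neg) lie above both red points (Itga6hi CD80pos) for 15 of the 34 members, as for 46.2% of all genes. Among the 15 are Psmb8, Psmb9, Psmb10, Psme1, Psme2 and the regulatory particle subunits Psmc2, Psmc3, Psmd4, Psmd6, Psmd7 and Psmd8.

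Most genes that act with the proteasome were higher too. Of 26 listed, 25 were in the table under their listed symbol and tested, and 21 were higher and 0 lower on deposited TPM, with a median log2 fold change of 2.10, where 57.0% of all genes were higher and the median gene was at 1.27. After median-of-ratios scaling 5 of the 25 were higher, where 6.26% of all genes were. Pomp, the maturation factor of the core, was at 298 and 242 TPM versus 47.4 and 99.1 TPM, with a log2 fold change of 1.95. Subunits outside the naming rule were higher too, Adrm1, a ubiquitin receptor, with a log2 fold change of 2.15 and Sem1, a small lid subunit, with 2.04. The deubiquitinase Usp14 and the ubiquitin shuttles Rad23b and Ubqln4 passed on deposited TPM and under the 3 scalings above, with log2 fold changes of 2.70, 2.69 and 2.67 on deposited TPM, and with Nfe2l2 they made 4 of 25, where 5.69% of all genes did. Scaled to the proteasome core, none of these 4 passed (limma adjusted p from 0.155 to 0.391). Ubb, a polyubiquitin gene, was at 1503 and 1259.8 TPM versus 979 and 1645 TPM and did not pass on deposited TPM (limma adjusted p = 0.890), but was lower after quantile normalization (0.0351). Scaled to the proteasome core, Ubb and Zfand5, also on the list, were lower (limma adjusted p = 0.0238 and 0.0438). On that scale 2 of the 25 were thus lower and 0 higher, where 7.64% of all genes were lower and 1.02% higher. Uba1, the main ubiquitin-activating enzyme, was higher at 206 and 194 TPM versus 29.6 and 28.4 TPM (limma adjusted p = 0.00537), but its adjusted p was 0.0513 without haemoglobin genes.

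The remaining 3 symbols that meet the rule are not proteasome subunits. Psmc3ip, a factor of meiotic recombination, had 13.8 and 9.42 TPM versus 1.27 and 2.27 TPM and was higher on deposited TPM (limma adjusted p = 0.00715), and its exons share 385 bases with Mlx on the other strand. Psme3ip1, a partner of Psme3, had a log2 fold change of 1.33 (limma adjusted p = 0.0339), which turned to -0.17 after median-of-ratios scaling. Psme2b, a close relative of Psme2, was at 0 and 0.116 TPM versus 1.40 and 0.997 TPM and under the filter. Fitted with no filter it was lower, with a log2 fold change of -1.05 (limma adjusted p = 0.0499). Reads shared between Psme2b and Psme2 were not resolved here. Psmb8 and Psmb9 lie near each other in the MHC region (chromosome 17, 34197721 to 34201454, plus strand, and 34181987 to 34187764, minus strand, GRCm38), and Psme1 and Psme2 are close neighbours on chromosome 14 (55578123 to 55581529, plus strand, and 55587441 to 55591113, minus strand). Psmb10 lies apart on chromosome 8 (105935735 to 105938444, minus strand).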

How the data were processed

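The authors deposited TPM per gene for 4 libraries. Per the submitters' processing notes they used kallisto 0.44.0 and mm10. The annotation, the summing to genes and any filter are not given in the sources used here. Spike-in and reporter or transgene rows were left out. TPM sums to a fixed total, so a library in which a few genes hold a large share has lower TPM for its other genes. Gene positions are from GENCODE M21 on GRCm38, matched by gene identifier.

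Values were log2(TPM + 1), without further scaling. Genes that reached 1 TPM in 2 or more libraries were fitted in one model with limma 3.58.1 in R 4.3.3 (eBayes with a trend, 2 residual and 3.33 prior degrees of freedom), two-sided, with Benjamini-Hochberg adjustment over 13474 genes. The fit was also run on simulated data, whose outcome is not reported here and is no check of the calls above. Median-of-ratios factors came from 9608 genes with at least 1 TPM in every library. Alternatives were pseudocounts of 0.1 and 5, no filter, a mean of at least 5 TPM, 3 scalings, a replicate block and leaving out each library. All genes meeting the naming rule are described, by role. The members and lists were chosen with earlier results of these data known, and the promoter motifs after the values were seen. Values of some single genes of the lists are not reported here.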

Additional observations from a re-analysis of the deposited data

How the results depend on the processing

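On deposited TPM 42 proteasome genes were higher, where 57.0% of all genes tested were. With no filter on low values Psme2b, not tested otherwise, made 1 lower, where 852 of all 30663 genes were lower. The count of higher proteasome genes was then 16, where 4564 of all 30663 genes were higher. It was 2 after median-of-ratios scaling, 4 after quantile normalization and 5 without haemoglobin genes, and from 0 to 46 when each library was left out. The median log2 fold change of 2.01 became 0.49, 0.70 and 0.67 under the 3 scalings, and from 1.43 to 2.60 without each library. The immunoproteasome to constitutive difference of -1.63 was -1.70 after quantile normalization. It ran from -2.21 to -1.06 without each library and was -1.53 as the mean of the 3 pairs. In these last settings its sign could not turn, because the populations did not overlap in the ratio of sums or in any pair.

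Signs turned for some single genes, none with an adjusted p under 0.05 in the setting that turned them. After median-of-ratios scaling, quantile normalization and without haemoglobin genes, the log2 fold changes were -0.51, -0.31 and -0.34 for Psmb9, -0.81, -0.64 and -0.64 for Psmb10, -0.49, -0.26 and -0.31 for Psme1, -0.45, -0.19 and -0.26 for Psme2, -0.48, -0.27 and -0.30 for Psme3, and -0.18, -0.0070 and -0.012 for Psmf1. Psme3ip1 turned to -0.17 and -0.0091 under the first 2 of these, and Psmd10 to -0.065 under the first. Psmb8, at -0.02, ran from -0.76 to 0.73 without each library, with 0.65 without Itga6hi CD80pos replicate 1 and 0.73 without Itga6low CD80neg replicate 2. The causes were not tested.

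With the replicate number as a replicate block, 42 genes were again higher, where 8044 of all 13474 genes tested were. The ratio difference was not refitted, because a block cannot change it when each number occurs once in each population. The deviations of same-numbered libraries had a correlation of 0.11 over 13474 genes, and with 2 pairs and no label that ties them the libraries share only a number. Depth is unknown from TPM, so no detection limit is given.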
